A study of Homo sapiens with 44 samples.

Results

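The genes of the NF-κB system examined here were the 5 subunits (NFKB1, NFKB2, REL, RELA and RELB) and 5 genes that hold the pathway back or tune it (NFKBIA, NFKBIZ, BCL3, TNFAIP3 and BIRC3). Chromatin accessibility around them was measured by ATAC-seq, a method that marks open DNA with a transposase loaded with adaptors, in the colon fibroblast line Ccd18-Co. Each cytokine was compared with no cytokine to ask where it opens or closes chromatin at these genes. The members were all peaks that the deposited table assigns to 1 of these 10 genes, 399 peaks of 407383 in all. The assignment is a name in the table and does not show that a peak acts on that gene: 84 of the 399 were centred inside another gene and 184 outside any gene. Some of the 84 lay where the other gene overlaps the named one. The 44 libraries formed 11 groups of 4 replicates, each from cells of this single line in serum-free medium, either unstimulated or given 1 cytokine. The study's methods state that the cells were first starved in serum-free medium and were processed on the day after the cytokine was added. Earlier times were not sampled here. TNF, oncostatin M (OSM), TGF-β1, IFNγ, IFNα, IL-6, IL-13, IL-17A and IL-22 were used at 10 ng/ml, and IL-1β at 0.1 ng/ml per the labels, although parts of the study's text give a lower IL-1β dose.

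NF-κB proteins are dimers of the 5 subunits. In resting cells they are held in the cytoplasm by inhibitors such as IκBα, the product of NFKBIA, and receptors for TNF and IL-1 activate a kinase that marks IκBα for destruction and lets the dimers enter the nucleus. Many of the genes they switch on limit the pathway again: new IκBα recaptures the dimers, A20 (TNFAIP3) edits ubiquitin chains at the receptor, cIAP2 (BIRC3) is a ubiquitin ligase there, and the nuclear IκB proteins BCL3 and IκBζ (NFKBIZ) change which target genes are used.

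Total coverage per library ran from 148.8 Mb (IL-6 replicate 4) to 823.1 Mb (IFNα replicate 2), and values below are coverage per Mb of library total after a correction for composition. All 11 fibroblast markers on the list had a start-site peak, with library medians from 5 per Mb (DCN) to 40.2 per Mb (COL1A2). Of 18 listed markers of epithelial, immune, endothelial, muscle and glial cells, 11 had such a peak, and the highest of their medians was 4.66 per Mb (CD14). In bulk samples, fewer cells with an open site and less opening per cell cannot be told apart.

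A few stretches of the peaks that the results turn on are printed here from the hg38 genome, plus strand, 5′ to 3′, because they differ in whether they hold the κB consensus (the 10-letter string that NF-κB dimers bind, searched on both strands). Capitals mark that string, no capitals mean that it is not in the stretch, and a match is a description and not a bound site. The first NFKBIA stretch is from the distal site, and the BIRC3 stretch from the start site, with the largest rise by TNF. The start site of NFKBIA, with a smaller rise, is also shown, and its peak holds 2 κB strings, of which the stretch shows 1. NFKB1 shows sites inside its own introns, and NFKBIZ and REL show sites raised by OSM or by IFNγ. The NFKB1 site at 63.2 kb was picked for its rise by TNF only among NFKB1 peaks that hold the string.
NFKBIA, 29.0 kb downstream, chr14:35375934-35376042: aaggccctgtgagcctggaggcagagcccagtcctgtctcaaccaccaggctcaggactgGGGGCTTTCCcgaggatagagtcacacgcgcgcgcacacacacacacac
NFKBIA start site, chr14:35404761-35404890: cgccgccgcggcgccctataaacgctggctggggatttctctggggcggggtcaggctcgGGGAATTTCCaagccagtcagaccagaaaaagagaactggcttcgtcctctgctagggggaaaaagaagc
BIRC3 start site, chr11:102317225-102317418: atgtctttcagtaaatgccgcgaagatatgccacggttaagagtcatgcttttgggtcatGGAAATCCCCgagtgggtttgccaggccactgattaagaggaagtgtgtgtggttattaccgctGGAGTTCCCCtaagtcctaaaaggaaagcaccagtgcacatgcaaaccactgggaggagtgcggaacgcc
NFKB1, 63.2 kb downstream, chr4:102564399-102564528: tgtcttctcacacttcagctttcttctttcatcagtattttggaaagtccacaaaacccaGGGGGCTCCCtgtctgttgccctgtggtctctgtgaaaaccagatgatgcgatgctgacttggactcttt
NFKB1, 20.8 kb downstream, chr4:102522059-102522188: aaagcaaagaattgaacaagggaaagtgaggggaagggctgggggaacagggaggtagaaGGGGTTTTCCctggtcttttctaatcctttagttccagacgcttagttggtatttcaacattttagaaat
NFKBIZ, 13.4 kb downstream, chr3:101862892-101863012: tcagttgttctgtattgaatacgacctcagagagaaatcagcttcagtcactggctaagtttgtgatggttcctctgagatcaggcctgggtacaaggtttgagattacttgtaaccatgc
REL, 52.8 kb downstream, chr2:60934302-60934422: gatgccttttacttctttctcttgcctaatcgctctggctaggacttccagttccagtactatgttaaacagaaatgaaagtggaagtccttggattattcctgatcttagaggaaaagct
Of 16 words of 30 bases taken along each peak, 3 in the NFKBIA peak 29.0 kb downstream were found elsewhere in the genome, 1 of them with 14125 copies, and 3 in the REL peak had up to 5 copies. The other 5 peaks had none. Whether copies elsewhere add reads to these peaks was not tested.

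TNF raised more peaks of these genes than any other cytokine tested. It raised 52 of the 399 peaks and lowered 1, where 2.68% of all 407174 tested peaks were raised and 1.46% lowered, so the share of members raised was 13% (limma, Benjamini-Hochberg adjusted p under 0.05, as for every call here). IL-1β raised 23 members (5.76%) and lowered 1, against 1.44% and 1.75% of all peaks. OSM raised 22 (5.51%) and lowered 1, against 4.13% and 1.05% of all peaks, so its share of raised members lay near the background. Without IL-1β replicate 4 the IL-1β count of 24 called members was 15, and without OSM replicates 1 or 2 the OSM count of 23 was 15 or 14. In 49 of the 52 peaks raised by TNF, all 4 TNF libraries lay above all 4 unstimulated libraries. These 52 had already been called raised, and the same share among all peaks raised by TNF was not counted. The median log2 change over the members was 0.27 with TNF, 0.13 with IL-1β and -0.09 with OSM, beside -0.03, 0.01 and -0.10 over all tested peaks.

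The peaks raised were spread unevenly over the genes. NFKBIA had 15 of its 77 peaks raised by TNF, NFKB2 9 of 43, TNFAIP3 8 of 38, NFKB1 7 of 62, NFKBIZ 6 of 59, BIRC3 3 of 39, and RELB and BCL3 2 each of 33 and 30. None of the 13 REL peaks or the 5 RELA peaks was called with TNF. With IL-1β the raised peaks were 7 at NFKBIA, 5 at NFKB2, 4 at NFKB1, 3 each at TNFAIP3 and BIRC3, and 1 at BCL3. With OSM, 12 of the 22 were at NFKBIZ, and under 3 other scalings of the libraries OSM raised 9 or 10 members and lowered 2, and 6 of those raised were at NFKBIZ.

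**Figure D1:**
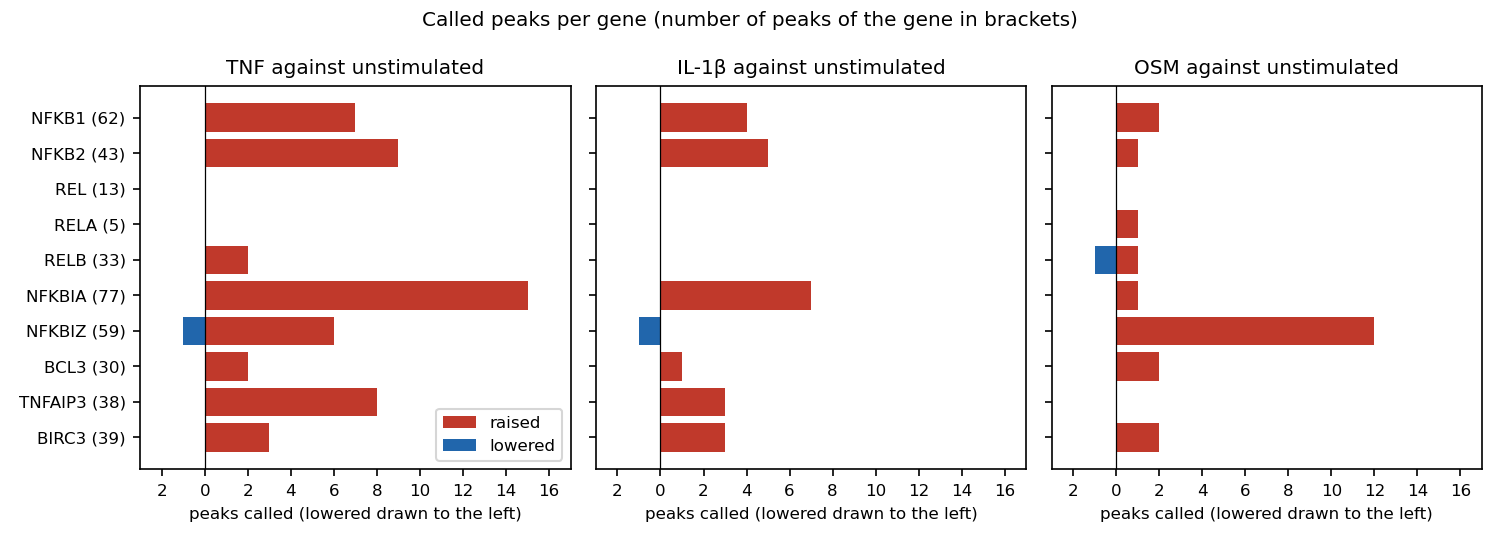
Number of peaks of each gene called raised (to the right of 0) or lowered (to the left) against unstimulated with TNF, IL-1β and OSM, with the number of peaks of the gene in brackets. NFKBIA carries the most peaks raised by TNF (15), NFKBIZ the most raised by OSM (12), and REL has none with these 3 cytokines.

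Summed over all peaks of a gene, coverage at NFKBIA was 168.9 ± 3.75 per Mb unstimulated, 294.5 ± 7.43 with TNF and 227.3 ± 10.3 with IL-1β (SD, n = 4). At TNFAIP3 it was 57.32 ± 6.68, 106.8 ± 4.03 and 72.93 ± 6.2 in the same groups. At NFKBIZ it was 123.2 ± 12.2 unstimulated, 166.9 ± 7.69 with TNF, 127.4 ± 13.4 with IL-1β and 203.7 ± 25.9 with OSM. The mean OSM sum was also above that with TNF at BCL3 (123.9 ± 1.6 and 120.6 ± 3.15). The same held at REL (26.35 ± 2.76 and 25.9 ± 1.4) and RELA (33.12 ± 3.76 and 26.13 ± 2.84). At the remaining genes the TNF sum was the higher of these groups. The correction for composition divided OSM libraries by 0.8608 to 0.9195 and TNF libraries by 0.9881 to 0.994, which lifts the OSM sums relative to TNF. Sums under other scalings were not computed, so the close orders at BCL3 and REL hold for this scaling only. REL and RELA had the smallest sums, 22.46 ± 2.4 and 23.61 ± 3.18 unstimulated.

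The contrasts with TNF, IL-1β and OSM share the unstimulated libraries, so the cytokines were also compared with each other. Of the 399 members, 11 members were lower with IL-1β than with TNF, against 1.1% of all peaks, and 1 was higher, against 0.218%. The cytokines were given at different doses (0.1 and 10 ng/ml), so this is a difference between treatments as used and cannot be told apart from dose, and the IL-1β dose itself is not given alike in every source. OSM against TNF gave 52 lower members, against 2.5% of all peaks, and 5 higher, against 4.74%. Leaving out IL-1β replicate 2 took the count for IL-1β against TNF from 12 to 4, leaving out TNF replicates 2, 3 or 4 to 6, 6 or 7, pseudocounts of 0.1 and 2 gave 7 and 24, and a fit of only the 2 groups gave 31.

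Only small counts came from the other cytokines. TGF-β1 raised 5 members and lowered 8, against 1.1% and 2.87% of all peaks, but 12 and 2 with median-of-ratios scaling, and the 13 calls became 8 without TGF-β1 replicate 3 or 4. IFNγ raised 2, against 1.33%, and IL-13 lowered 1, against 0.645%. Without IFNγ replicate 3 or unstimulated replicates 2 or 3 the IFNγ count was 4, and without IFNα replicate 3 the IFNα count was 4. IFNα, IL-17A, IL-6 and IL-22 gave 0 called members with limma in the fit of all libraries, where 0.651%, 0.0305%, 0.0646% and 0.084% of all peaks were called. At an unadjusted p under 0.05 there were 29 members with IFNα (8.97% of all peaks passed that limit), 35 with IL-17A (6.29%), 39 with IL-6 (8.52%) and 31 with IL-22 (7.59%). The smallest adjusted p among members was 0.0564 with IFNα, 0.191 with IL-17A, 0.177 with IL-6 and 0.154 with IL-22, which does not show that these cytokines left the genes as they were. In all, 76 of the 399 members were called in at least 1 cytokine contrast and 323 in none.

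**Figure D2:**
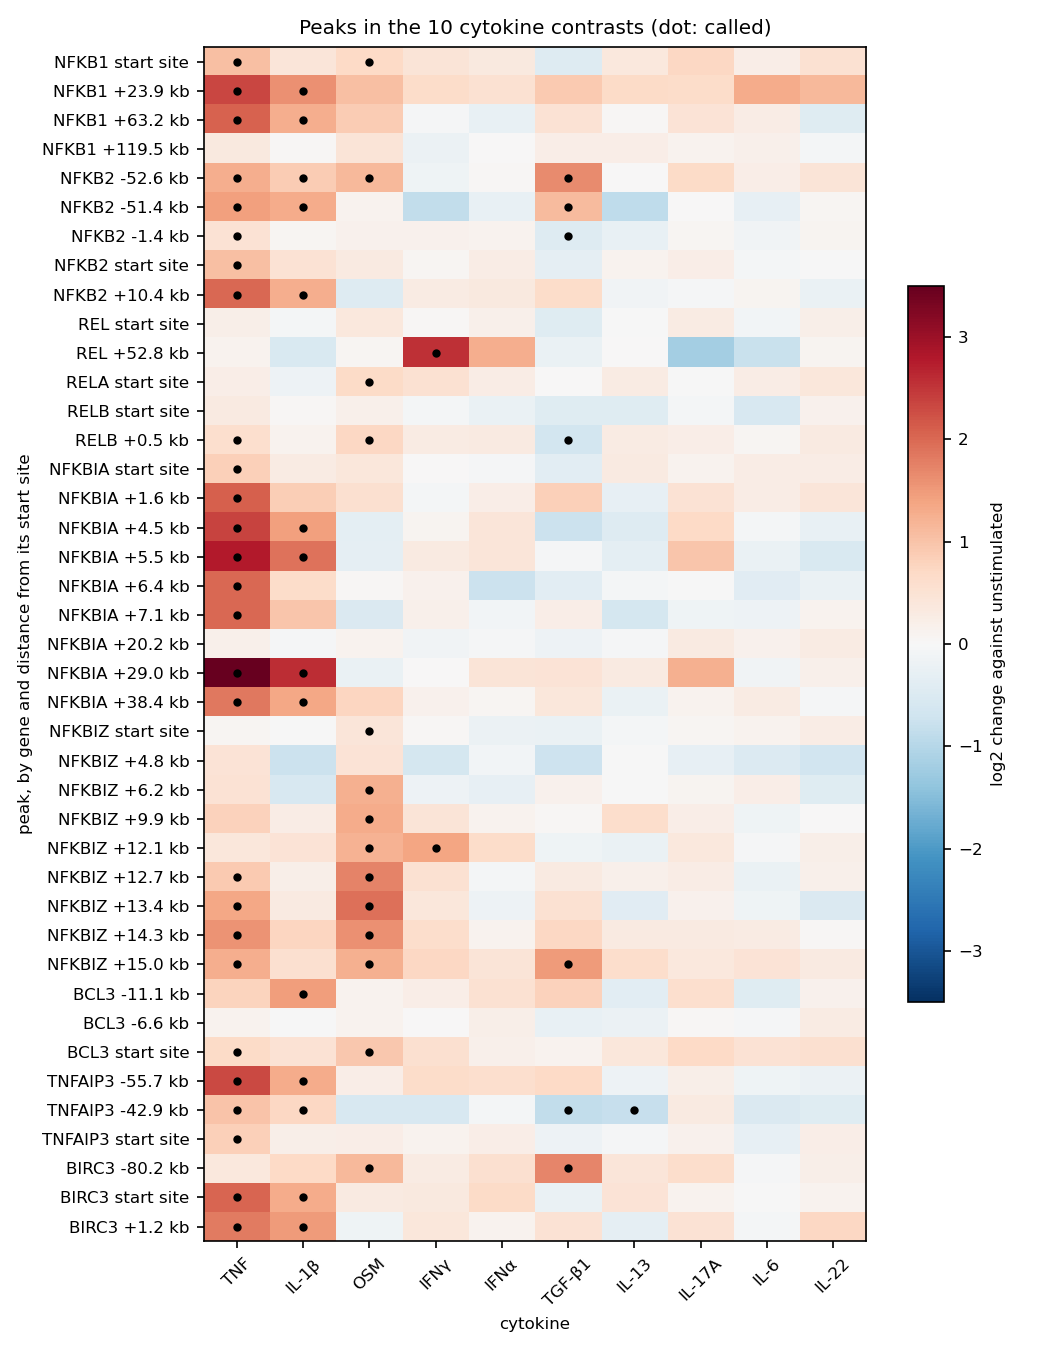
Log2 change against unstimulated of named peaks (rows, gene and distance from its start site in kb) under each of the 10 cytokines (columns), from blue (lower) to red (higher), with a dot where the peak was called. The largest change shown is at the NFKBIA peak 29.0 kb downstream with TNF (3.49), the REL row is highest with IFNγ (2.56), and the NFKBIZ row 13.4 kb downstream is highest with OSM (1.92).

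NFKB1 encodes p105, the precursor of the subunit p50. Its start-site peak (chr4:102501096-102501596) rose with TNF from 5.08 ± 1.93 to 10.7 ± 2.35 per Mb, a log2 change of 1.06 ± 0.23 (SE, adjusted p = 3.72e-04 by limma). Inside its introns, a peak 63.2 kb downstream of the start rose from 1.31 ± 0.435 to 6.93 ± 1.37 per Mb with TNF (log2 change 2.06, adjusted p = 2.97e-07). The peak 23.9 kb downstream rose from 0.267 ± 0.227 to 3.3 ± 0.685 with TNF and to 1.77 ± 0.46 with IL-1β (adjusted p = 4.7e-07 and 2.5e-03). Beyond the gene, a peak 126.6 kb from the start rose with TNF (4.7 ± 1.39 to 12.8 ± 1.75), IL-1β (10.5 ± 1.76) and TGF-β1 (10.3 ± 3.37). The 63.2 kb peak reached 4.01 ± 1.63 with IL-1β, where libraries overlapped with the unstimulated ones and the call (adjusted p = 8.41e-03) was lost without IL-1β replicate 1, IL-1β replicate 3 or unstimulated replicate 3 (adjusted p = 0.0526, 0.0693 and 0.0861). The most covered NFKB1 peak, 119.5 kb downstream, held 8.61 ± 1.05 per Mb unstimulated and 11 ± 0.992 with TNF and did not pass (adjusted p = 0.469).

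A further NFKB1 intronic peak, 20.8 kb downstream (chr4:102521878-102522378), was singled out after its values were seen, as the only member higher with IL-1β than with TNF. Unstimulated libraries held 0.803, 0.19, 0 and 0.214 per Mb, and IL-1β libraries 3.97, 3.61, 5.75 and 4.15. The TNF libraries held 0.581, 0.395, 1.27 and 1.4 per Mb. All 4 IL-1β libraries lay above every TNF and unstimulated library. The log2 change was 2.67 ± 0.40 against unstimulated (adjusted p = 3.95e-08) and 1.84 ± 0.40 against TNF (adjusted p = 1.4e-03, or 0.148 with a pseudocount of 0.1). Both this peak and the one at 63.2 kb, raised by TNF, held 1 κB string. The NFKB1 peak at 23.9 kb, also raised by TNF, held none.

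NFKB2 encodes p100, which is both the precursor of the subunit p52 and an inhibitor. Its start-site peak (chr10:102395280-102395780) rose with TNF from 11.1 ± 1.8 to 23.5 ± 3.33 per Mb (log2 change 1.06, adjusted p = 4.77e-07). The peak 1.4 kb upstream of the start site used here lies over the annotated beginning of the gene. It held the most coverage of the locus and 6 κB strings. It was 31 ± 1.94 per Mb unstimulated, 44 ± 3.58 with TNF (adjusted p = 2e-03) and 22.6 ± 2.17 with TGF-β1 (log2 change -0.45, adjusted p = 9.68e-03). TNF libraries lay wholly above and TGF-β1 libraries wholly below the unstimulated ones. The TGF-β1 call was lost without TGF-β1 replicate 4 (-0.38, adjusted p = 0.0761), with the GC correction (-0.23, adjusted p = 0.362) and under 3 other scalings (-0.27 to -0.32, adjusted p from 0.0587 to 0.141).

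Away from the gene, 3 NFKB2 peaks between 9.2 and 10.4 kb downstream, inside the neighbouring gene PSD, rose with TNF (the one at 9.8 kb not with a pseudocount of 0.1, adjusted p = 0.0812). The one at 10.4 kb went from 0.825 ± 0.127 to 4.92 ± 1.5 per Mb (log2 change 2.00, adjusted p = 2.71e-05) and stood at 0.631 ± 0.679 with OSM. With IL-1β it held 2.96 ± 1.59 (1.27, adjusted p = 0.0313), a call lost with a pseudocount of 0.1, without IL-1β replicates 2 or 4 and without any 1 unstimulated replicate (adjusted p from 0.0506 to 0.236). Upstream, in an intron of GBF1, the peak 52.6 kb from the start (chr10:102342900-102343400) rose with TNF, OSM, TGF-β1 and IL-1β. Unstimulated libraries held 3.54, 2.54, 2.25 and 1.64 per Mb there, TNF libraries 7.67, 6.29, 7.72 and 4.83, and OSM libraries 6.6, 7.08, 6.42 and 4.13. TGF-β1 gave the highest group at this peak, with 11.1, 8.17, 7.96 and 8.02 per Mb (log2 change 1.66 ± 0.27, adjusted p = 6.92e-07). With TNF and OSM the log2 changes were 1.27 ± 0.27 and 1.14 ± 0.27 (adjusted p = 2.73e-04 and 1.74e-03). IL-1β gave 4.95 ± 0.997 per Mb (0.88 ± 0.27, adjusted p = 0.0374), a call lost with a pseudocount of 0.1 (adjusted p = 0.0554) and without IL-1β replicates 1 or 4 or unstimulated replicates 2, 3 or 4 (adjusted p from 0.0701 to 0.186). No library of these 4 cytokines overlapped with the unstimulated ones. The neighbouring peak 51.4 kb upstream held 1.48 ± 0.765 per Mb unstimulated, 4.61 ± 0.646 with TNF and 4.33 ± 1.49 with IL-1β (adjusted p = 2.33e-03 and 9.19e-03), and the IL-1β call was lost without IL-1β replicate 4 or unstimulated replicate 1 (adjusted p = 0.0963 and 0.0578) and with a pseudocount of 0.1 (0.0859). TGF-β1 gave 3.59 ± 0.743 there (adjusted p = 0.0424), a call lost with the GC correction, with a pseudocount of 0.1, and without any 1 TGF-β1 replicate or unstimulated replicates 1, 3 or 4 (0.0545 to 0.167).

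RELB encodes the usual partner of p52. Its own start-site peak did not pass the test with TNF (4.82 ± 0.867 and 6.32 ± 2.19 per Mb, adjusted p = 0.686). The peak 0.5 kb into the gene rose with OSM from 12.9 ± 3.35 to 21.1 ± 2.18 per Mb (log2 change 0.72, adjusted p = 1.5e-03, or 0.0508 with median-of-ratios scaling). It was 19 ± 1.42 with TNF and 8.25 ± 3.06 with TGF-β1 (adjusted p = 0.02 and 7.06e-03). The TNF call there was lost without any 1 of TNF replicates 1 and 4 or unstimulated replicates 3 and 4 (adjusted p from 0.0529 to 0.173), and the TGF-β1 call without TGF-β1 replicates 3 or 4 or unstimulated replicates 1 or 2 (0.0761 to 0.138).

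REL encodes c-Rel and RELA encodes p65, the subunits that carry the transactivating domain together with RelB. The start-site peak of REL held 13.8 ± 2.11 per Mb unstimulated, 15.8 ± 0.98 with TNF and 13 ± 0.827 with IL-1β (adjusted p = 0.697 and 0.936). That of RELA held 13.2 ± 3.13, 15.3 ± 1.77 and 11.3 ± 1.48 (adjusted p = 0.608 and 0.745). Both genes were thus open at their start in unstimulated cells, and no TNF or IL-1β call was made at either.

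One REL peak stood out with interferon. It lies outside any gene, 52.8 kb downstream of the start (chr2:60934112-60934612). Unstimulated libraries held 0.179, 1.12, 0.751 and 0.748 per Mb, and IFNγ libraries 4.91, 6.51, 6.18 and 7.63. IFNα libraries held 2.65, 3.22, 0.93 and 3.12. The 4 IFNγ libraries lay above every library of every other group, with a log2 change of 2.56 ± 0.39 (adjusted p = 1.33e-07), while IFNα overlapped with unstimulated in 1 library and did not pass the test (log2 change 1.28, adjusted p = 0.0994). All 4 IL-17A libraries are listed at 0 there.

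NFKBIA encodes IκBα, and its locus held the largest change of the 399 with TNF among peaks with a mean of at least 1 per Mb. That peak lies 29.0 kb downstream, outside any gene (chr14:35375542-35376042), and its κB string heads the list of sequences. Unstimulated libraries held 1.35, 0.569, 0.227 and 1.17 per Mb, TNF libraries 16.6, 11.3, 16.7 and 10.7, and IL-1β libraries 8.56, 5.27, 6.52 and 7.66. The 3 groups did not overlap. The log2 change was 3.49 ± 0.34 with TNF (adjusted p = 7.75e-18) and 2.57 ± 0.34 with IL-1β (adjusted p = 4.32e-10). IL-1β against TNF was -0.92 ± 0.34 with an adjusted p of 0.218, so that difference did not pass. IL-17A libraries held 3.1, 1.57, 2.75 and 2.52 per Mb, all above the unstimulated ones, but the change of 1.23 had an adjusted p of 0.246. In the OSM group the mean was 0.6 ± 0.297 per Mb.

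Nearer to NFKBIA, a run of 8 peaks from 1.6 to 7.6 kb downstream of the start, 6 of them past the end of the gene, rose with TNF (the one at 3.8 kb not with a pseudocount of 0.1, adjusted p = 0.112). The largest change of the run lies at 5.5 kb (chr14:35399009-35399509), and the unstimulated libraries held 1.85, 2.42, 1.69 and 1.81 per Mb against 15.1, 14.9, 16.4 and 18.6 with TNF. IL-1β libraries held 10.2, 7.36, 8.62 and 8.08. Log2 changes were 2.78 ± 0.29 and 1.89 ± 0.29 (adjusted p = 1.32e-15 and 1.75e-07). Its neighbour at 4.5 kb rose from 2.12 ± 0.732 to 12.8 ± 1.57 with TNF and 6.47 ± 0.473 with IL-1β. The peak at 7.1 kb rose from 1.34 ± 0.463 to 6.8 ± 1.21 with TNF (adjusted p = 3.47e-06). No peak of this run held a κB string. The adjoining peak at 0.9 kb, which held 1, was also raised by TNF, a call lost in 4 of the fits without 1 library. The start-site peak held 2. The peaks at 6.4 and 1.6 kb were lower with IL-1β than with TNF (2.69 ± 0.861 against 7.67 ± 1.69, and 3.7 ± 0.656 against 9.28 ± 1.56). At 6.4 kb the adjusted p was 7.6e-03, and 0.0557 and 0.0585 without IL-1β replicate 2 and TNF replicate 1. Beyond the distal site, a peak 38.4 kb downstream with 1 κB string rose from 2.46 ± 0.94 to 9.98 ± 2.03 per Mb with TNF and 6.92 ± 1.42 with IL-1β (adjusted p = 1.92e-08 and 1.51e-04). The most covered peak assigned to NFKBIA, at 20.2 kb, held 21.7 ± 3.7 per Mb unstimulated and 24.6 ± 1.99 with TNF and did not pass (adjusted p = 0.63).

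**Figure D3:**
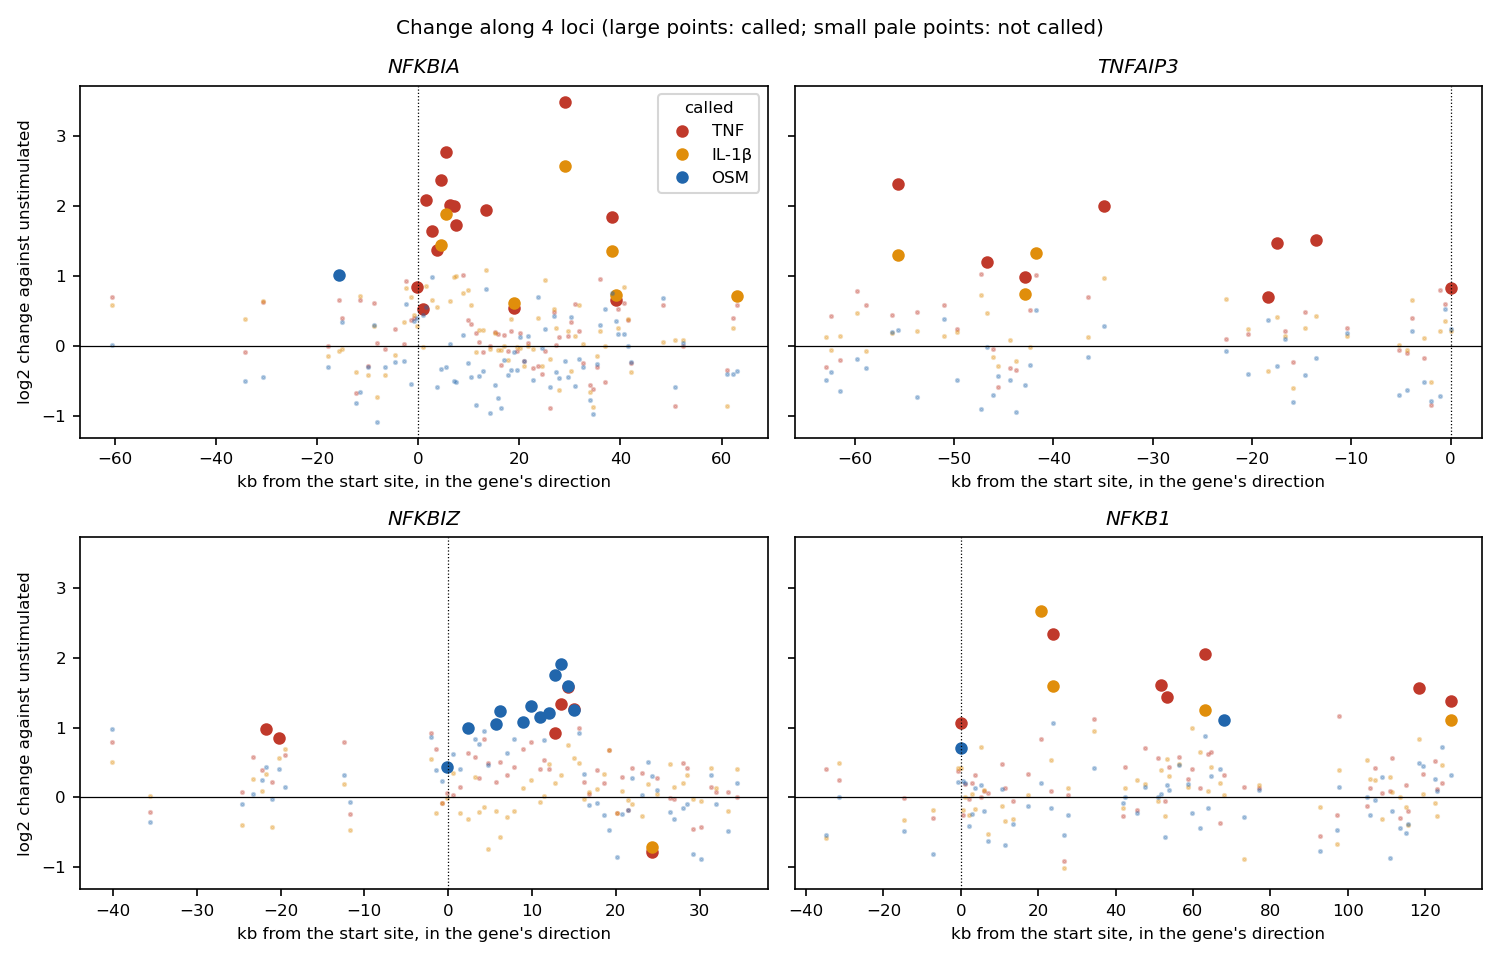
Log2 change with TNF, IL-1β and OSM of every peak of NFKBIA, TNFAIP3, NFKBIZ and NFKB1 against its distance from the start site (kb, in the direction of the gene). Large points are called peaks and small pale points are not: NFKBIA shows a run raised by TNF up to 7.6 kb and a peak at 29.0 kb, and NFKBIZ a run raised by OSM up to 15.0 kb.

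NFKBIZ encodes IκBζ, a nuclear inhibitor that also acts as a coactivator, and it held 12 of the 22 members raised by OSM. The largest OSM change was at a peak 13.4 kb downstream of the start and past the end of the gene (chr3:101862702-101863202), with no κB string. Unstimulated libraries held 2.81, 2.38, 2.08 and 2.15 per Mb, OSM libraries 13, 12.8, 8.8 and 7.46, and TNF libraries 4.93, 6.74, 9.3 and 6.53. Both treated groups lay wholly above the unstimulated one, and they overlapped with each other. The log2 change was 1.92 ± 0.29 with OSM (adjusted p = 1.43e-07), 1.34 ± 0.29 with TNF (adjusted p = 4.86e-04) and 0.32 with IL-1β (adjusted p = 0.765), and OSM against TNF did not pass (0.57, adjusted p = 0.273). IL-1β against TNF passed (-1.02, adjusted p = 0.0436) but not under 3 other scalings, with a pseudocount of 0.1, or without any 1 IL-1β replicate or TNF replicates 2, 3 or 4 (0.0617 to 0.237).

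The peaks at 12.7 and 14.3 kb also rose with OSM, with 2.73 ± 0.194 and 1.37 ± 0.491 per Mb unstimulated, and 10.8 ± 3.56 and 5.22 ± 1.95 with OSM (adjusted p = 1.57e-07 and 1.06e-04). With TNF they reached 5.72 ± 1.24 and 4.98 ± 0.968 (adjusted p = 0.0205 and 9.6e-05), the first a call lost without TNF replicates 1 or 3 or unstimulated replicates 2 or 4 (0.0528 to 0.0986). At 12.1 kb the peak rose with OSM (2.89 ± 0.681 to 7.32 ± 1.76) and with IFNγ (8.28 ± 1.06, log2 change 1.39 ± 0.26, adjusted p = 7.55e-05). The peak at 15.0 kb rose with TGF-β1 from 0.898 ± 0.618 to 3.33 ± 1.31 per Mb (1.49 ± 0.34, adjusted p = 1.37e-03). It was also called with OSM (2.71 ± 1.03) and TNF (2.66 ± 0.627). The OSM call (adjusted p = 0.0102) was lost under 3 other scalings and without OSM replicate 2 or unstimulated replicates 2 or 3 (adjusted p from 0.0545 to 0.0929), and the TNF call (9.78e-03) without unstimulated replicates 2 or 3 (0.0851 and 0.0804). Inside the gene, the peaks at 6.2 and 9.9 kb rose with OSM from 2.1 ± 0.618 to 5.52 ± 0.626 and from 1.6 ± 0.927 to 4.42 ± 0.496 per Mb (adjusted p = 4.57e-03 and 3.04e-03). At 4.8 kb the peak was lower with IL-1β than with TNF (1.37 ± 0.442 against 3.79 ± 0.191, adjusted p = 0.0129), a call lost without IL-1β replicate 2 or TNF replicate 2 (adjusted p = 0.135 and 0.057), while neither passed against unstimulated (0.245 and 0.547). The same contrast was called at 6.2 kb (1.27 ± 0.508 against 3.13 ± 0.334, adjusted p = 0.0479) and lost under 3 other scalings, with a pseudocount of 0.1 and without IL-1β replicates 2 or 3 or any 1 TNF replicate (0.0649 to 0.272). One site went the other way. At 24.3 kb, a peak outside the naming rule and chosen after its values were seen held 12.1 ± 2.97 per Mb unstimulated and 6.73 ± 1.27 with TNF (log2 change -0.78, adjusted p = 1.86e-03), while OSM libraries stood at 14.8 ± 2.53, above all TNF libraries (adjusted p = 1.47e-06). It was the only member lowered by TNF, and it was also called lowered with IL-1β (7.12 ± 1.67) and TGF-β1 (7.33 ± 1.01, adjusted p = 7.68e-03 and 0.0165). The IL-1β call was lost without IL-1β replicate 2 or unstimulated replicate 3 (adjusted p = 0.0795 and 0.108), and the TGF-β1 call under 3 other scalings and without TGF-β1 replicates 3 or 4 or unstimulated replicates 1 or 3 (0.0535 to 0.156).

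The start site of NFKBIZ was the most covered of the 10 (24.2 ± 2.48 per Mb unstimulated) and held 25.3 ± 2.83 with TNF and 24.3 ± 4.52 with IL-1β (adjusted p = 0.927 and 0.99).

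BCL3 encodes a nuclear IκB protein that joins p50 and p52 dimers. Its start-site peak rose with OSM from 6.5 ± 1.1 to 12.8 ± 1.2 per Mb (log2 change 0.94 ± 0.21, adjusted p = 6.6e-04, or 0.52 and 0.116 with the GC correction). With TNF it reached 10.5 ± 1.26 (0.66 ± 0.21, adjusted p = 0.0388), a call lost without any 1 of TNF replicates 1, 2 and 4 or unstimulated replicates 3 and 4 (adjusted p from 0.0744 to 0.167). The peak 11.1 kb upstream rose with IL-1β from 2.09 ± 0.715 to 6.56 ± 1.71 per Mb (1.47 ± 0.29, adjusted p = 1.4e-04). With TNF the same peak held 3.93 ± 1.42 and did not pass (adjusted p = 0.144). The most covered BCL3 peak, 6.6 kb upstream, held 26.8 ± 1.76 per Mb unstimulated and 29 ± 3.15 with TNF (adjusted p = 0.811).

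TNFAIP3 encodes A20. Its start-site peak, in the UTR (chr6:137867020-137867520), rose with TNF from 13.5 ± 2.98 to 24.3 ± 3.69 per Mb (log2 change 0.83, adjusted p = 2.05e-04) and stood at 15.8 ± 2.97 with IL-1β. IL-1β against TNF was -0.62 there (adjusted p = 0.038), a call lost without IL-1β replicates 2 or 4 or TNF replicates 3 or 4 (adjusted p from 0.118 to 0.284). All other peaks raised by TNF at this gene lay upstream, most of them inside WAKMAR2, a noncoding gene. The farthest, at 55.7 kb, rose from 0.539 ± 0.295 to 4.81 ± 2.16 (log2 change 2.31, adjusted p = 1.28e-06). With IL-1β it held 2.34 ± 1.44 (1.30, adjusted p = 0.0328), a call lost with a pseudocount of 0.1 and without IL-1β replicates 1, 2 or 4 or unstimulated replicates 2, 3 or 4 (adjusted p from 0.055 to 0.228). The peak 34.9 kb upstream rose from 0.464 ± 0.362 to 3.19 ± 0.861 per Mb (2.00, adjusted p = 7.09e-05).

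The TNFAIP3 peak 42.9 kb upstream, over a WAKMAR2 exon (chr6:137824141-137824641), moved both ways among the cytokines. Unstimulated libraries held 11, 8.7, 6.96 and 13.2 per Mb, TNF libraries 18.7, 17.6, 21.5 and 21.5, and IL-1β libraries 19.6, 19.4, 11.2 and 17.3. TGF-β1 libraries held 6.24, 4.92, 4.24 and 5.31, and IL-13 libraries 4.37, 4.84, 5.59 and 6.65. TNF lay wholly above the unstimulated range and TGF-β1 and IL-13 wholly below it, while IL-1β overlapped with it. Log2 changes were 0.99 with TNF (adjusted p = 1.37e-04), 0.74 with IL-1β (0.014), -0.85 with TGF-β1 (2.18e-03) and -0.81 with IL-13 (0.0105). The IL-1β call was lost without IL-1β replicates 1, 2 or 4 or unstimulated replicates 2 or 3 (adjusted p from 0.0512 to 0.163). The IL-13 call was lost without IL-13 replicate 1 or unstimulated replicates 1 or 4 (adjusted p = 0.0651, 0.0543 and 0.132).

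BIRC3 encodes cIAP2, and its start-site peak had the largest TNF change of the 10 start sites (chr11:102317111-102317611). Unstimulated libraries held 5.47, 6.01, 6.64 and 7.59 per Mb, TNF libraries 29.6, 27.8, 27.6 and 26.8, and IL-1β libraries 17.3, 14.1, 17.7 and 16.7. The 3 groups were fully apart. The log2 change was 2.05 ± 0.20 with TNF (adjusted p = 3.57e-18) and 1.30 ± 0.20 with IL-1β (adjusted p = 1.04e-07), and the difference between them passed (-0.75 ± 0.20, adjusted p = 0.0201). That difference no longer passed without IL-1β replicates 2 or 4 or TNF replicates 1, 2 or 3 (-0.68 to -0.76, adjusted p from 0.0539 to 0.119). IFNα libraries held 13.5, 13.2, 5.66 and 11.2 per Mb, 3 of them above the unstimulated range, and did not pass (0.66, adjusted p = 0.0966). The peak 1.2 kb into the gene rose with TNF from 0.523 ± 0.553 to 2.8 ± 0.232 per Mb (adjusted p = 4.72e-04). IL-1β gave 2.19 ± 0.74 there (adjusted p = 0.0109), a call lost with a pseudocount of 0.1 and without IL-1β replicate 3 or unstimulated replicates 1 or 4 (0.0501 to 0.0923). Farther off, a peak 80.2 kb upstream rose with TGF-β1 from 0.653 ± 0.402 to 3.16 ± 0.979 per Mb (1.71, adjusted p = 6.39e-04). OSM gave 1.92 ± 0.342 at that peak (adjusted p = 0.0486), a call lost under 3 other scalings, with a pseudocount of 0.1, and without any 1 OSM replicate or unstimulated replicates 3 or 4 (0.0601 to 0.211).

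**Figure D4:**
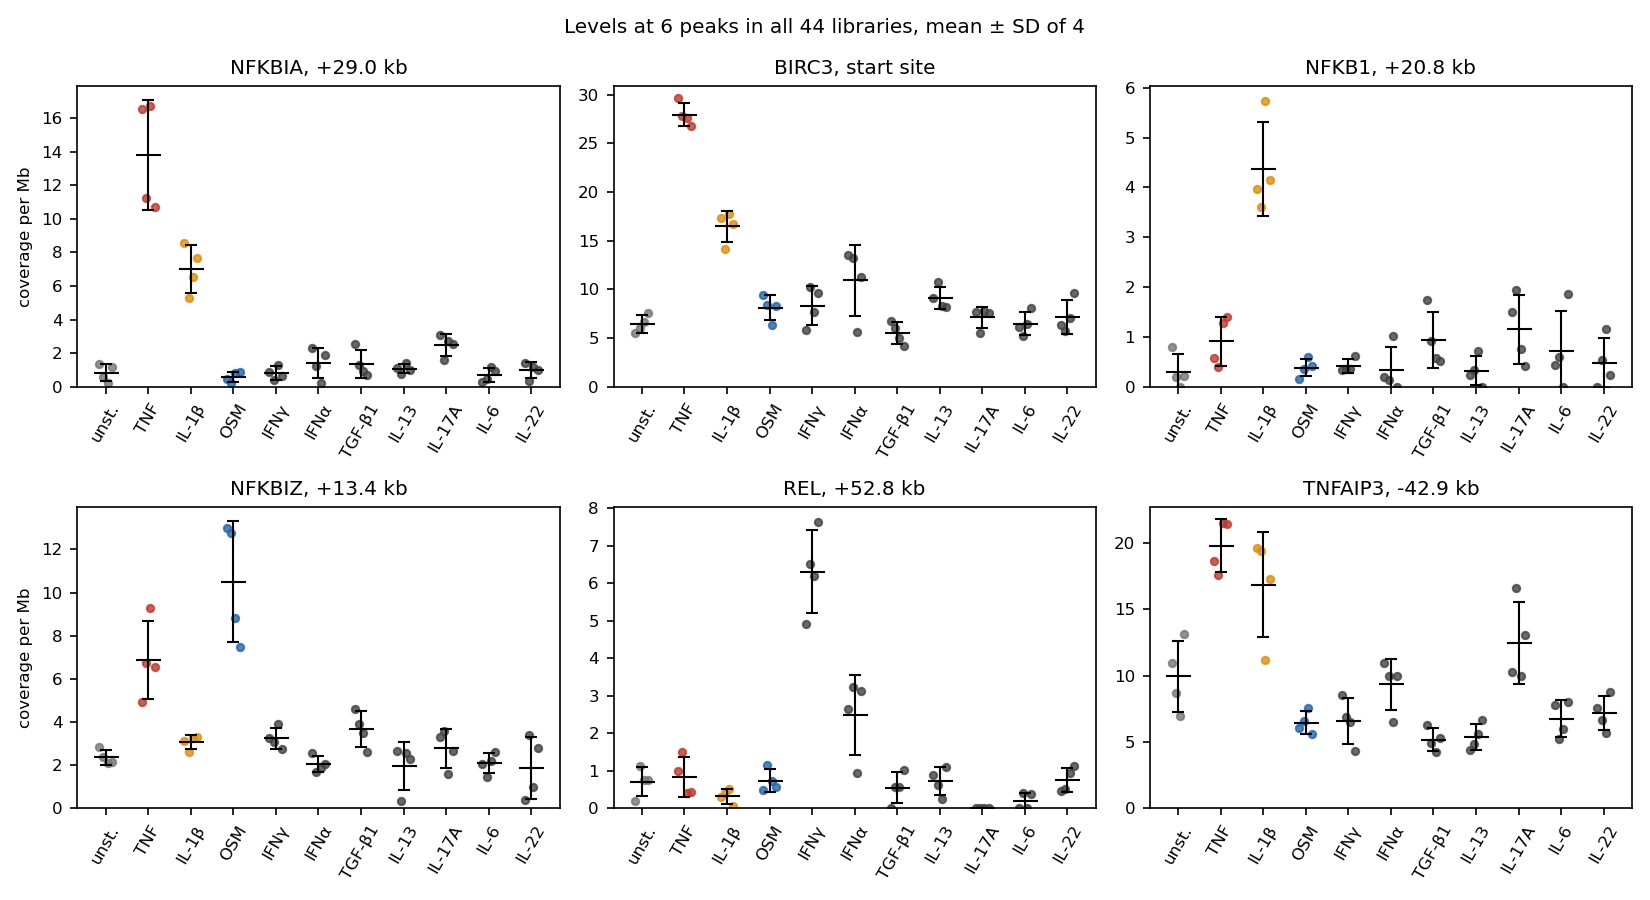
Coverage per Mb of each library (points) in 6 member peaks for every group, with the group mean and SD (bars). TNF and IL-1β libraries lie above the unstimulated ones at the NFKBIA and BIRC3 peaks, IL-1β above all other groups at the NFKB1 peak, OSM and TNF above unstimulated at the NFKBIZ peak and IFNγ above all other groups at the REL peak, while at TNFAIP3 TNF lies above and TGF-β1 and IL-13 below the unstimulated range.

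Set side by side, the start sites of 6 of the 10 genes rose with TNF (BIRC3, NFKB2, NFKB1, NFKBIA, TNFAIP3 and BCL3), 1 with IL-1β (BIRC3) and 4 with OSM. Of all tested peaks that the table classes as promoter, TNF raised 1.72%, IL-1β 0.983% and OSM 9.32%, so the OSM count stands on a higher background. Start sites were picked by distance and not by class: those of BCL3 and NFKBIZ are classed exonic and that of NFKB2 intronic. Of all exonic peaks TNF raised 1.91%, IL-1β 1.27% and OSM 5.03%, and of all intronic ones 2.73%, 1.43% and 3.71%. The 4 OSM start sites were BCL3, NFKB1, RELA and NFKBIZ, with log2 changes of 0.94, 0.70, 0.68 and 0.43. After a correction for the GC content of each peak, these were 0.52, 0.28, 0.26 and 0.01 and none passed (adjusted p = 0.116, 0.568, 0.416 and 0.976). The RELA call was also lost without unstimulated replicate 1 (0.51, adjusted p = 0.0717), the NFKB1 call without any 1 of OSM replicates 1, 2 and 3 or unstimulated replicates 2 and 3 (adjusted p from 0.0664 to 0.353), and the NFKBIZ call without any 1 of OSM replicates 1, 2 and 3 or unstimulated replicates 1, 2 and 4 (0.0735 to 0.173). The TNF changes at BIRC3, NFKB2, NFKB1, NFKBIA and TNFAIP3 passed under every alternative run. With IL-1β, NFKB2 (11.1 ± 1.8 to 15.8 per Mb) passed under other scalings (log2 change 0.54 or 0.55, adjusted p from 0.0259 to 0.0317) and not in the scaling used here.

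**Figure D5:**
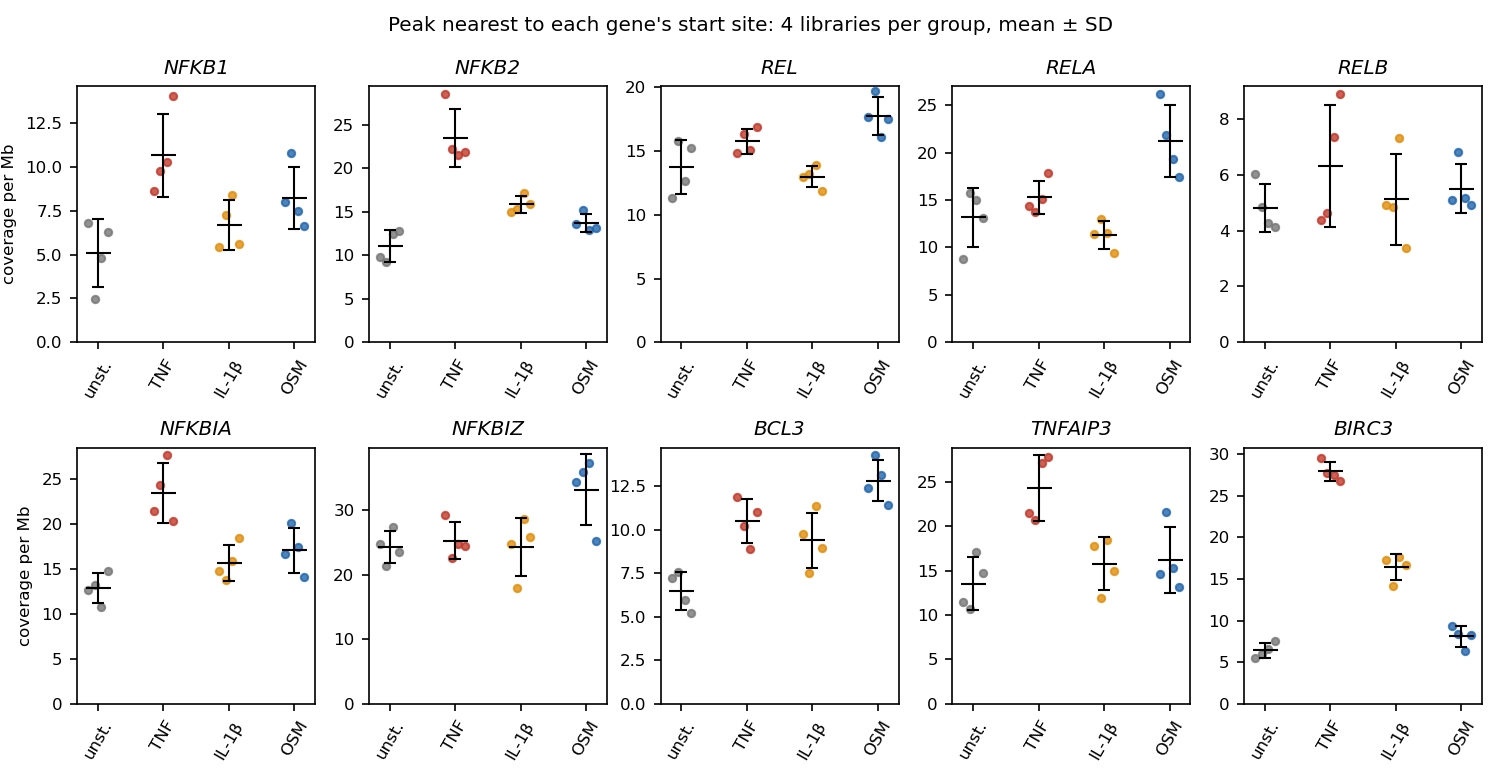
Coverage per Mb of the start-site peak of each gene in each unstimulated (unst.), TNF, IL-1β and OSM library (points), with the mean and SD (bars) of 4 libraries. The 4 TNF libraries at BIRC3 lie between 26.8 and 29.6 per Mb, above every other library shown for it, and the groups of RELB overlap.

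By the class that the table gives each peak, TNF raised 5 of the 28 promoter members, 8 of the 38 exonic, 18 of the 148 intronic and 21 of the 185 distal ones. Among all tested peaks of these classes it raised 1.72%, 1.91%, 2.73% and 2.95%.

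The κB string was found in 51 of the 399 members (12.8%), and in 13% of all tested peaks. Among members raised by TNF it was in 19 of 52, where 29.9% of all peaks raised by TNF held it. For IL-1β these were 7 of 23 and 22.7%, and for OSM 4 of 22 and 12.9%. The AP-1 string TGANTCA, the same on both strands, was in 97 members, in 25.7% of all tested peaks and in 54.3% of all peaks raised by TNF, while 18 of the 52 raised members held it. The strings were counted separately and can overlap. The STAT string TTCNNNGAA was in 4 of the 22 members raised by OSM, and in 17.2% of all tested peaks. The interferon string TTTCNNTTTC (both strands) was in neither of the 2 members raised by IFNγ, though 46.1% of all peaks raised by IFNγ held it, against 9.13% of all tested peaks.

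The rest of the pathway was counted from lists of other genes. Of 325 peaks of 12 target genes, such as chemokines and adhesion molecules, TNF raised 75 (23.1%) and lowered 1, and IL-1β raised 63 (19.4%), against 2.68% and 1.44% of all peaks. Of the 12 start sites TNF raised 8 and IL-1β 7, where they raised 1.72% and 0.983% of all peaks classed as promoter. At the start site of CXCL8, a neutrophil chemokine, the log2 change was 3.14 ± 0.30 with TNF and 2.57 ± 0.30 with IL-1β, and at ICAM1, a leukocyte adhesion receptor, it was 2.22 and 0.87. Those of VCAM1, another adhesion receptor, CCL20 and PTGS2 did not pass with TNF (0.37, 0.34 and 0.05) or IL-1β (-0.50, 0.48 and 0.03). Of 299 peaks of 12 other inhibitors, TNF raised 37 (12.4%) and lowered 5, the raised ones including the start sites of TNIP3 (2.06), which binds A20, and NFKBIE (0.69), which encodes IκBε. Of 390 peaks of 18 kinases and adaptors, TNF raised 17 (4.36%) and lowered 11, with 1 start site raised, that of the adaptor TRAF3 (1.48, adjusted p = 1.53e-03). Of 283 peaks of the receptors, TNF raised 5 (1.77%, below the background) and lowered 10, and no start site was raised.

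IL-1β raised 10 peaks of the other inhibitors (3.34%), 10 of the kinases and adaptors (2.56%) and 6 of the receptors (2.12%), against 1.44% of all peaks. OSM raised 21 peaks of the targets (6.46%), 11 of the other inhibitors (3.68%), 24 of the kinases and adaptors (6.15%) and 18 of the receptors (6.36%), against 4.13% of all peaks. The start sites raised by OSM were 1 of 12 among targets, 3 of 12 among other inhibitors, 4 of 18 among kinases and adaptors and 1 of 11 among receptors. Of all peaks classed as promoter, OSM raised 9.32%. Start sites of these lists were not examined with the GC correction.

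Over the 11 group means, the peaks of other genes whose pattern was most like that of the NFKBIA peak 29.0 kb downstream were assigned to LINC02399 (Pearson's r = 0.988), AGPAT4 (0.985), LOC100996447 (0.983), FAM185A (0.982) and LINC01829 (0.981). They were picked as the highest of 167890 peaks considered, so the values are a description.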

How the data were processed

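Ccd18-Co libraries were made by the Omni-ATAC protocol. Per the methods of the study, the authors aligned reads to hg38 with the ENCODE ATAC-seq pipeline and called peaks with MACS2. Those methods describe peaks of variable length for the cell line and peaks of fixed width for single cells from patients. The peaks named here share a single width, so they may not have been called in these libraries, and their origin was not tested. The deposited values are a signal, the coverage by reads added up across each peak, unscaled for library size. These sums are not counts, so the count model of the study's methods was not used. Coverage was divided by library total (Mb) and by a composition factor (trimming 30% of log ratios and 5% of means), 0.5 was added, and log2 was taken, which understates changes of low peaks. Of 407383 peaks, 209 with a log2 mean of -3 or below were left out. limma 3.58.1 (R 4.3.3) fitted all 44 libraries with group as the only term, eBayes with trend, and p-values were Benjamini-Hochberg adjusted over all tested peaks of a contrast. All 399 members passed the filter. The script was tested on simulated data.

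Peaks named were the start-site peak and the most covered peak of each gene, the 12 called members with the largest change for TNF and for IL-1β, and 4 for each other contrast, with a mean of at least 1 per Mb. A few others are named to describe a run or a count, and 1 peak that the rule names is not reported here. Members and lists were chosen with earlier results of these data known. The labels do not say that replicates were separate cultures, so p-values measure the spread between these samples. Same-numbered replicates did not deviate together. Alternatives were other scalings, a GC correction, other pseudocounts, no filter, a fit of only the groups compared, a replicate block and leaving out each library. Gene positions are from the annotation provided with hg38, and sequences are from that genome.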

Additional observations from a re-analysis of the deposited data

Results flagged for a closer look

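In 9 of 119 groups of 4 libraries tested, 1 library stood apart from the other 3 by Dixon's test, where chance gives about 1 in 20. The TGF-β1 replicate 1 library held 11.1 per Mb at the NFKB2 peak 52.6 kb upstream (the others 7.96 to 8.17). Unstimulated replicate 2 held 2.62 per Mb at the NFKB2 peak 51.4 kb upstream (others 0.968 to 1.18), and unstimulated replicate 3 held 1.35 at the BIRC3 peak 1.2 kb downstream (others 0.164 to 0.303). TNF replicate 1 held 28.5 per Mb at the NFKB2 start site (others 21.5 to 22.3). IL-1β replicate 1 held 4.68 at the NFKBIA peak 1.6 kb downstream (others 3.31 to 3.47), and OSM replicate 2 held 6.83 at the RELB start site (others 4.91 to 5.19). Total coverage stood apart in IFNα replicate 2 (823.1 Mb, others 325.2 to 390.5), IFNγ replicate 2 (657.5 Mb, others 420.8 to 452.7) and TNF replicate 4 (726.6 Mb, others 373.4 to 388.8). The part of these libraries in the changes was not tested beyond leaving each out.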

How the results depend on the processing

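The TNF count of 53 called members stayed between 47 and 57 under other settings and between 43 and 52 without 1 library. IL-1β (24) gave 17 to 28, and 15 to 21 without 1 library (15 without IL-1β replicate 4). OSM (23, of which 22 raised) gave 12 with a composition factor from peaks covered in every library (chosen after seeing the data), 12 with library totals, 11 with median-of-ratios scaling (9 raised), 35 with only the groups compared, and 14 to 25 without 1 library (15 and 14 without OSM replicates 1 and 2). Median-of-ratios scaling moved the median of all peaks with OSM from -0.10 to -0.22. For TGF-β1 (13, of which 5 raised) it gave 14, of which 12 raised, and library totals 11, of which 7 raised, with 8 to 14 without 1 library (8 without TGF-β1 replicate 3 or 4). IFNγ (2) gave 4 with only the groups compared and 2 to 4 without 1 library (4 without IFNγ replicate 3 or unstimulated replicates 2 or 3). IFNα (0) gave 3 with the covered-peak factor, 1 with library totals, 3 with median-of-ratios, 1 with only the groups compared, 1 with a pseudocount of 0.1, 1 with 2, and 0 to 4 without 1 library (4 without IFNα replicate 3, 1 and 2 without unstimulated replicates 1 and 3). IL-13 (1) gave 0 to 1, with 0 without IL-13 replicate 1 or unstimulated replicate 4. IL-1β against TNF (12) gave 31 with only the groups compared, 7 and 24 with pseudocounts of 0.1 and 2, and 4 to 12 without 1 library. OSM against TNF (57) gave 46 to 76, and 41 to 50 without 1 library. IL-17A, IL-6 and IL-22 gave 0 under each alternative. The replicate block gave 53 for TNF, 24 for IL-1β, 23 for OSM, 3 for IFNγ, 14 for TGF-β1 and 57 for OSM against TNF, and same-numbered libraries correlated at most at 0.0325. For 204 single peak values, 2966 alternative values kept their side of the threshold, 498 lost the call and 4 gained one. No change of direction was found where the main or the alternative value was called. Changes of direction between uncalled values were not counted. The causes were not tested. Total coverage limits what the shallowest library, IL-6 replicate 4, can show.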
